A study of Mus musculus with 16 samples.

Results

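The mitochondrially encoded transcripts are the products of the mitochondrial genome itself, and they were taken as every row of the gene count table whose Ensembl identifier carries a symbol that starts with mt-. The rule found 37 of 46078 identifiers: 13 mRNAs, 2 rRNAs and 22 tRNAs. They were followed through 16 mouse fat libraries of poly(A)-selected RNA, 4 in each of 4 groups. BAT_30C and WAT_30C were brown and inguinal white adipose tissue of female wild-type C57BL/6 mice housed at 30 °C from birth until 16 weeks of age. BAT_5C and WAT_5C were the same tissues of female wild-type C57BL/6 mice of the same age, born and raised at 30 °C, moved at 10 to 12 weeks to a climate chamber, held there first for 2 weeks at 18 °C and then for 3 weeks at 5 °C. Food was withdrawn for 2 to 3 hours before all tissues were collected. The tissue label of the brown samples reads inguinal BAT. The design compares the transcripts of each fat depot between the warm and the cold. Whether the libraries of a group came from different mice is not stated in the labels, and the p-values thus measure only how far these libraries spread, which may be technical in part.

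The mitochondrial genome is a small circle that encodes core subunits of respiratory chain complexes I, III and IV and of the ATP synthase, together with the rRNAs and tRNAs that translate them. Each strand is transcribed as a long precursor, and tRNAs that lie between the longer genes mark where the precursor is cut. Transcription of the heavy-strand precursor starts near the rRNA genes, which therefore lie first in it. Brown adipocytes are packed with mitochondria, and in cold their uncoupling protein UCP1 lets the respiratory chain release its energy as heat. White adipocytes hold fewer mitochondria, and inguinal white fat can acquire brown-like, Ucp1-expressing adipocytes in cold.

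The members were placed with the GENCODE M21 annotation of mouse build GRCm38, matched by identifier to all 37. The build and annotation behind the deposited counts are not given here by labels or headers. On the heavy-strand precursor the order of the long genes was mt-Rnr1 (the 12S rRNA, chrM:70-1024), mt-Rnr2 (the 16S rRNA, chrM:1094-2675), mt-Nd1, mt-Nd2, mt-Co1, mt-Co2, mt-Atp8, mt-Atp6, mt-Co3, mt-Nd3, mt-Nd4l, mt-Nd4, mt-Nd5 and mt-Cytb (chrM:14145-15288). Of the mRNAs, mt-Nd6 (chrM:13552-14070) alone is annotated on the other strand, as are 8 of the 22 tRNAs. Those genes lie antisense to the heavy-strand precursor. The library kit does not mark strand, so reads from such a gene and from the precursor opposite it cannot be told apart.

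The tRNAs that carried nearly all tRNA counts are shown here in full, 5′ to 3′ as annotated by GENCODE M21, because the results on tRNAs turn on them. Capitals mark the anticodon, which was located as the middle of a loop of 7 bases closed by a stem of 5 base pairs.
mt-Tp: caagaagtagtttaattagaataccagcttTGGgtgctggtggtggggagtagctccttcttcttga
mt-Tn: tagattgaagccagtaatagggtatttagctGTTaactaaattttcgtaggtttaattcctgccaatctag
mt-Tc: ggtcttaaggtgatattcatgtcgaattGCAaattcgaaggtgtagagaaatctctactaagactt
mt-Ts1: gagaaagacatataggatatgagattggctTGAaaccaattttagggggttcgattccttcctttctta
The first is the proline tRNA (chrM:15356-15422), the last gene of the annotation before the non-coding control region. The asparagine tRNA mt-Tn (chrM:5089-5159) and the cysteine tRNA mt-Tc (chrM:5192-5257) flank an unannotated gap of 32 bases. All of these, and the serine tRNA mt-Ts1 (chrM:6870-6938), are annotated on the strand opposite the heavy-strand precursor.

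Some members share sequence with nuclear copies of the mitochondrial genome, and this bears on their counts. The share of each member's 50-base windows that also occur in another annotated transcript, on either strand, was 100% for mt-Co2, 99.9% for mt-Co3, 99.5% for mt-Atp6, 98.8% for mt-Nd4l and 98.0% for mt-Nd3. It was 62.2% for mt-Nd4, 51.1% for mt-Co1, 8.19% for mt-Nd2, 7.61% for mt-Nd5 and 1.04% for mt-Rnr2. No window was shared for mt-Rnr1, mt-Nd1, mt-Atp8, mt-Nd6, mt-Cytb or any tRNA. In 7 annotated nuclear genes at least 90% of the gene's own windows lay in a member, and all 7 stand in a single block of 4663 bases on the minus strand of chr1:24611535-24616197. They are Gm28439 (copy of mt-Nd4), Gm10222 (mt-Nd4l), Gm28438 (mt-Nd3), Gm28437 (mt-Co3), Gm10925 (mt-Atp6), Gm28661 (mt-Co2) and Gm29216 (mt-Co1). Between the copies of mt-Atp6 and mt-Co2 the block has 233 bases with no annotated gene, facing 233 mitochondrial bases that hold mt-Tk and most of mt-Atp8, so sharing by these genes could not be searched there.

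The copies differ from the mitochondrial genes by very little, as the stretches below show. Bases 1027 to 1106 of mt-Co1 (GENCODE M21) are printed with capitals from where the last 479 bases, identical to Gm29216, begin. Bases 837 to 916 of mt-Nd4 are printed with capitals up to where the first 876 bases, identical to Gm28439, end. The first 40 bases of mt-Nd3 and Gm28438 follow, with the 1 base in which they differ, at position 3 from the start of each, in capitals.
mt-Co1: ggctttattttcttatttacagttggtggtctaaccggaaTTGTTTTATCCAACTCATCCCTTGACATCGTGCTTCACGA
mt-Nd4: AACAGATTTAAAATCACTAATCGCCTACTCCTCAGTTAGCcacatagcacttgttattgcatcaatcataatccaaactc
mt-Nd3: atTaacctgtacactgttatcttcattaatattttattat
Gm28438: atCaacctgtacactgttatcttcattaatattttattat
Members overlap each other as well. The last 43 bases of mt-Atp8 are also the first of mt-Atp6, shown in capitals in bases 122 to 204 of mt-Atp8, and mt-Nd4l shares 7 bases with mt-Nd4.
mt-Atp8: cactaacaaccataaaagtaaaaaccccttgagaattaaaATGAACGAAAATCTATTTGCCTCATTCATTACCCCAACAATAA
How the authors' counting gave out reads that fit several of these genes is not given in those sources either.

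Library depth was 54264023 to 71289020 counts. Ucp1 was at 634 to 2019 CPM (counts scaled to a common library size) in warm brown fat and 12388 to 13787 CPM in cold brown fat, and at 0.0839 to 0.324 CPM and 6.08 to 399 CPM in warm and cold white fat, so the brown and white labels and the temperature labels were each matched by this marker. All 7 brown adipocyte markers and all 6 adipocyte markers had counts in every group. In 4 of the 8 BAT libraries (BAT_30C replicates 3 and 4 and BAT_5C replicates 1 and 2) the source field names the other temperature, while title and housing field match. The first WAT_5C library (replicate 1) was unlike the others. Xist had 3 counts in it, which female cells transcribe from their inactive X chromosome, against 11136 to 88934 in the other 15 libraries, although its label reads female. Its mammary epithelium markers (10 genes, geometric mean 0.742 CPM against 33.0 to 35.3 in the rest of WAT_5C) and T and NK cell markers (9 genes, 11.2 against 40.7 to 47.9) were low. Its skeletal muscle markers (12 genes, 133 against 0.683 to 9.98) and adipocyte markers (6 genes, 1477 against 425 to 654) were high for the group. High muscle markers were not particular to this library, as they ran from 6.17 to 158 CPM in WAT_30C. None of these genes was at 0 over the WAT_5C group. The main results on the members that rest on WAT_5C are therefore given with and without this library.

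Mitochondrial transcripts made up a large share of the counts in brown fat at 30 °C, and the 37 members together took 24.2, 26.8, 26.2 and 26.3% of the counts of the 4 BAT_30C libraries. In BAT_5C the share was 17.6, 19.0, 19.4 and 18.6%. White fat held far less, with 3.25, 3.19, 3.47 and 4.18% in WAT_30C and 9.59, 4.04, 5.66 and 5.63% in WAT_5C. The lowest BAT library stood above the highest WAT library at either temperature. The 13 mRNAs supplied nearly all of it, at 98.1% ± 0.220 of the mitochondrial counts in BAT_30C, 96.1% ± 0.795 in BAT_5C, 98.7% ± 0.0781 in WAT_30C and 98.2% ± 0.381 in WAT_5C (mean ± SD, n = 4). In bulk tissue, fewer cells of a type and less RNA per cell cannot be told apart.

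The size of the brown fat difference depended on the scale. As a share of all counts the mRNAs went from 23.8, 26.2, 25.7 and 25.8% in BAT_30C to 16.8, 18.4, 18.6 and 18.0% in BAT_5C, and the groups did not overlap. After TMM scaling, which sets the libraries level on the bulk of their genes, all members summed to 27.5, 33.2, 31.0 and 31.9% of the scaled total in BAT_30C and to 27.0, 28.6, 30.2 and 29.9% in BAT_5C, and the groups overlapped. Scaling by library totals moved the median log2 difference over all genes tested in BAT from -0.05 to -0.43, and the members moved with it. All CPM and tests below use TMM scaling. In WAT the summed CPM was 2.07, 2.06, 2.37 and 2.87% of the scaled total at 30 °C and 10.2, 2.80, 4.36 and 4.43% at 5 °C, where the first value belongs to replicate 1 and the second overlapped the 30 °C group.

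The ratio of rRNA to mRNA was higher in cold in both tissues and does not depend on the scaling. There were 1.52, 2.03, 1.94 and 1.95 rRNA counts per 100 mRNA counts in BAT_30C and 4.84, 2.91, 4.31 and 3.62 in BAT_5C. In WAT the ratio was 1.18, 1.28, 1.21 and 1.06 at 30 °C and 1.32, 1.44, 2.21 and 1.63 at 5 °C. The temperatures did not overlap in either tissue, and in WAT this held without replicate 1, which had the lowest ratio of its group. The mean was 1.86 ± 0.227 against 3.92 ± 0.839 in BAT and 1.18 ± 0.0942 against 1.65 ± 0.395 in WAT (SD, n = 4), or 1.76 ± 0.401 without replicate 1 (n = 3). As a sum over members the ratio was given no test. Mitochondrial rRNAs and most mitochondrial mRNAs carry short poly(A) tails and were counted after poly(A) selection, so the ratio describes the selected RNA.

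**Figure D1:**
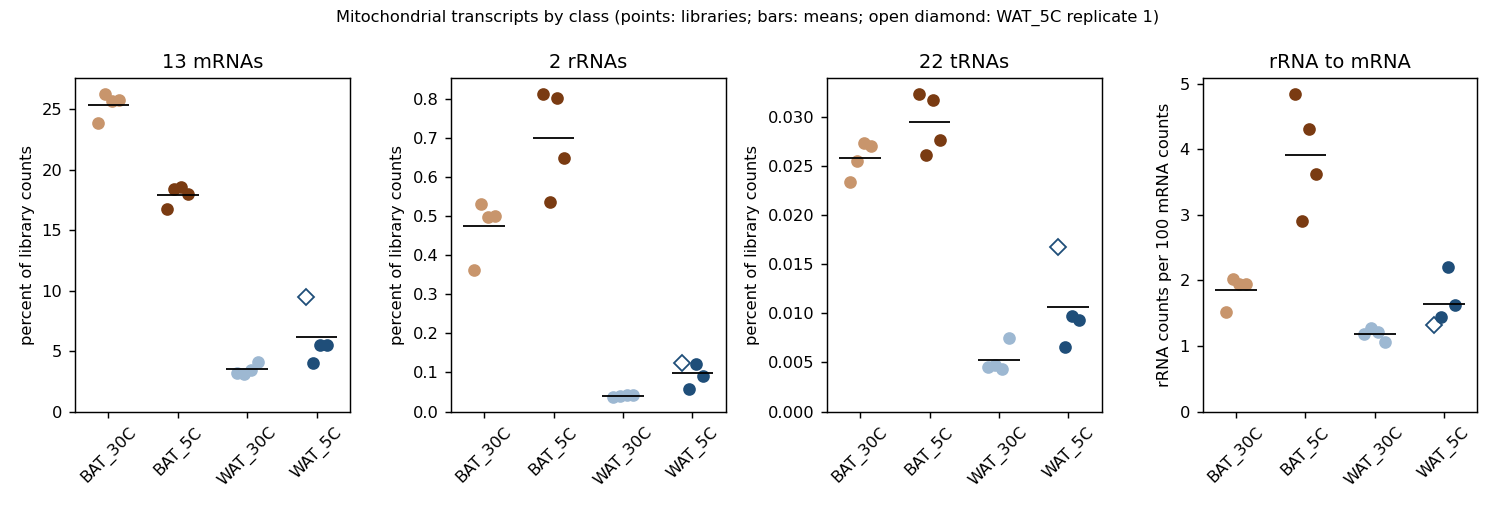
Share of library counts (percent) held by the 13 mRNAs, the 2 rRNAs and the 22 tRNAs, and rRNA counts per 100 mRNA counts, in each library (points) with the group mean (bar). The mRNA share is 23.8 to 26.2% in BAT_30C and 16.8 to 18.6% in BAT_5C, the rRNA to mRNA ratio is higher at 5 °C in both tissues, and WAT_5C replicate 1 (open diamond) has the highest mRNA share of its tissue.

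In brown fat, some mitochondrial transcripts rose in cold and others fell. Of the 37 members 22 had enough counts to be tested, that is all 13 mRNAs, both rRNAs and 7 tRNAs. Both rRNAs, mt-Nd1, mt-Nd2, mt-Atp8 and mt-Tp rose, while mt-Co1, mt-Co3, mt-Nd4, mt-Nd6 and the tRNAs mt-Tl1, mt-Tm, mt-Tn and mt-Tc fell. That is 6 rising, where 29.2% of all 16213 genes tested rose, and 8 falling, where 30.3% fell, so the shares called were near those of the background. Of the 8 falling, mt-Tl1 and mt-Tm were tested only through their counts at 30 °C, and among the other 20, each with a median count of 10 or more in both groups, 6 rose and 6 fell. The median log2 difference of the 20 was -0.15, against -0.05 over all genes tested, and 8 did not pass (edgeR's quasi-likelihood test, adjusted p threshold 0.05). The rises along the heavy-strand precursor were its first 4 long genes, mt-Rnr1, mt-Rnr2, mt-Nd1 and mt-Nd2, and then mt-Atp8. Where only the 4 BAT libraries with matching labels were used, 4 members rose (20.3% of all genes) and 3 fell (16.4%). In a fit of all 16 libraries, whose spread includes WAT_5C, 2 rose (20.9% of all genes) and 4 fell (23.7%). These 4 include mt-Tl1 and mt-Tm, tested only through BAT_30C, so the 4 cannot be set against the share of all genes. The calls that held in all 18 settings tried were the rises of mt-Rnr1 and mt-Rnr2 and the falls of mt-Tn and mt-Tc. The 7 brown adipocyte markers, Ucp1 among them, moved with temperature as well, from a geometric mean of 76.2 to 158 CPM in BAT_30C to 903 to 1198 CPM in BAT_5C, and their part in these results was not tested.

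The rRNAs form the large and small RNAs of the mitochondrial ribosome. The 12S rRNA mt-Rnr1 was at 1293, 1974, 1969.6 and 1889 CPM in the 4 BAT_30C libraries and at 4428, 2658, 3978 and 3390.3 CPM in BAT_5C. Every cold library stood above every warm one, and the log2 difference was 1.02 ± 0.18, adjusted p = 0.000829 (SE throughout, n = 4 and 4). The 16S rRNA mt-Rnr2 was at 2839, 4624, 3932 and 4192 CPM and then 8038, 5415, 8501 and 7029 CPM, again without overlap, with a log2 difference of 0.90 ± 0.17, adjusted p = 0.00152. Both calls held in all 18 settings tried, library totals and the 4 libraries with matching labels included.

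Complex I, which takes electrons from NADH, has 7 of its subunits encoded here, and they did not move together. The mt-Nd1 mRNA was at 21763, 23793, 22408 and 22994 CPM in BAT_30C and 36465, 38090.4, 36412 and 39877 CPM in BAT_5C, with no overlap (log2 0.73 ± 0.07, adjusted p = 2.45e-05). Its call was lost in the 4 libraries with matching labels (adjusted p = 0.0714) and in the fit of all 16 libraries (0.0628). The mt-Nd2 mRNA went from 26456, 30733, 28248 and 31082 CPM to 33822, 36183, 38291 and 38572 CPM, also with no overlap, and rose by less (log2 0.34 ± 0.09, adjusted p = 0.00724). Scaled by library totals, mt-Nd2 had a log2 difference of -0.04 and was not called. Farther along the genome, mt-Nd4 was at 19751, 24105, 23779 and 23344 CPM and 18101, 18107, 20093 and 19390.5 CPM, overlapping by 1 warm library, and fell by a little (log2 -0.26 ± 0.09, adjusted p = 0.0238). This call was lost when any of BAT_30C replicates 2, 3 and 4 or BAT_5C replicates 1 and 2 was left out, with adjusted p from 0.0661 to 0.0887. The mRNA of the opposite strand, mt-Nd6, fell from 5842, 7579.5, 6153 and 6506 CPM to 4389.7, 5197, 5673 and 5303 CPM with no overlap (log2 -0.34 ± 0.10, adjusted p = 0.0160), and without BAT_30C replicate 2 the adjusted p was 0.0609. The other complex I mRNAs overlapped and did not pass. mt-Nd5 was at 22059.9, 27647, 20683 and 24705 CPM and 17954, 20729, 22498 and 22024 CPM (log2 -0.19 ± 0.11, adjusted p = 0.164), and with library totals it was called falling, at -0.57 (adjusted p = 0.000308). mt-Nd3 was at 97.0, 139, 142 and 143 CPM and 126, 129, 71.4 and 158 CPM (log2 -0.10 ± 0.22, adjusted p = 0.722). mt-Nd4l was at 27.8, 61.7, 26.5 and 44.6 CPM and 30.0, 27.7, 40.3 and 70.6 CPM (log2 0.08 ± 0.35, adjusted p = 0.868).

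Complex IV, which passes electrons to oxygen, has its catalytic core encoded by mt-Co1, mt-Co2 and mt-Co3. The most abundant member, mt-Co1, was at 117482, 146483, 138267 and 138883 CPM in BAT_30C and at 86727, 96826, 99876 and 98296 CPM in BAT_5C. All cold libraries were below all warm ones (log2 -0.50 ± 0.10, adjusted p = 0.00175). The mt-Co1 call was lost in the 4 libraries with matching labels (adjusted p = 0.429) and in the fit of all 16 libraries (0.292). The mt-Co3 count was 128, 277, 184 and 445 CPM at 30 °C and 44.2, 39.4, 25.9 and 47.4 CPM at 5 °C, without overlap (log2 -2.72 ± 0.37, adjusted p = 0.000166). That value is uncertain, since the nuclear Gm28437 shares 99.9% of its windows and took 38.8 to 71.8% of the counts of the pair in BAT_30C and 83.8 to 88.0% in BAT_5C. With the copy's counts added, the log2 difference of mt-Co3 was -1.04 ± 0.26 with an adjusted p of 0.00719. In the fit of all 16 libraries the mt-Co3 call was lost (adjusted p = 0.0701). The mt-Co2 counts, at 388, 424, 560.0 and 238 CPM and 193, 408, 182 and 597 CPM, overlapped and did not pass (log2 -0.22 ± 0.39, adjusted p = 0.656), and with its copy added the log2 difference was 0.13 ± 0.26.

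For complex III and the ATP synthase the result depended on the scaling. The mt-Cytb mRNA, for the cytochrome b of complex III, was at 52012, 58479, 58336 and 58614 CPM in BAT_30C and 54149, 55403, 59395 and 56747 CPM in BAT_5C, which overlapped (log2 -0.01 ± 0.08, adjusted p = 0.925). With library totals it was called falling, at -0.39 (adjusted p = 6.51e-05). The ATP synthase subunit mRNA mt-Atp8 was at 4478, 5127, 4744 and 4644 CPM and 4955, 5484, 6004 and 5961 CPM, overlapping, and its small rise passed (log2 0.24 ± 0.08, adjusted p = 0.0257). It was no longer called without BAT_5C replicate 3 (adjusted p = 0.0656) or replicate 4 (0.0604), and with library totals its log2 difference was -0.14. The mt-Atp6 counts, at 559.7, 602, 719.8 and 564 CPM and 518, 741, 809 and 921 CPM, overlapped and did not pass (log2 0.29 ± 0.16, adjusted p = 0.143), while without BAT_5C replicate 1 the adjusted p was 0.0114.

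The tRNAs were divided. tRNAs bear no poly(A) tail and most are shorter than a sequenced fragment, so few counts are usual in such libraries. The proline tRNA mt-Tp held 92.2% of all tRNA counts, and mt-Tp, mt-Tn and mt-Tc together 99.4%. mt-Tp was at 229, 269, 277 and 286 CPM in BAT_30C and 479, 382, 472 and 423 CPM in BAT_5C, and it rose with no overlap (log2 0.73 ± 0.09, adjusted p = 0.000123). In the fit of all 16 libraries this call was lost (adjusted p = 0.0755). The neighbours of mt-Tp in abundance moved the other way. mt-Tn was at 19.8, 25.7, 23.8 and 22.8 CPM and then 8.83, 6.14, 12.0 and 11.4 CPM (log2 -1.26 ± 0.19, adjusted p = 0.000349). mt-Tc was at 15.1, 18.7, 19.9 and 16.6 CPM and then 7.21, 5.18, 9.19 and 8.85 CPM (log2 -1.20 ± 0.18, adjusted p = 0.000274). Neither pair of groups overlapped, and both falls held in all 18 settings.

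Of the tRNAs on the heavy-strand precursor, those tested for leucine and methionine had very few counts. mt-Tl1, which lies between mt-Rnr2 and mt-Nd1, had 19, 23, 24 and 14 counts in the BAT_30C libraries and 3, 4, 11 and 6 in BAT_5C (log2 -1.40 ± 0.40, adjusted p = 0.0124). mt-Tm, which lies between mt-Tq and mt-Nd2, had 14, 15, 15 and 9 counts and then 1, 2, 3 and 3 (log2 -2.17 ± 0.40, adjusted p = 0.00115). Both reached the count minimum only through BAT_30C, and neither call held in the 4 libraries with matching labels (adjusted p = 0.215 for mt-Tl1 and 0.0530 for mt-Tm). mt-Ts1 (0.719, 0.887, 1.28 and 0.978 CPM and 0.736, 0.708, 0.660 and 0.544 CPM, log2 -0.54 ± 0.25, adjusted p = 0.0841) and the glutamate tRNA mt-Te (24, 29, 19 and 19 counts and 12, 16, 18 and 16 counts, log2 -0.22 ± 0.25, adjusted p = 0.470) overlapped and did not pass. The other 15 tRNAs were not tested: each had at most 20 counts in any library and 0 to 76 over all 16. mt-Ts2 had no count in 1006224855, which allows a share of up to 2.98e-07% (3 counts, counting error only). By strand, the 8 tRNAs opposite the heavy-strand precursor held 177452 counts and the 14 on it 270.

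**Figure D2:**
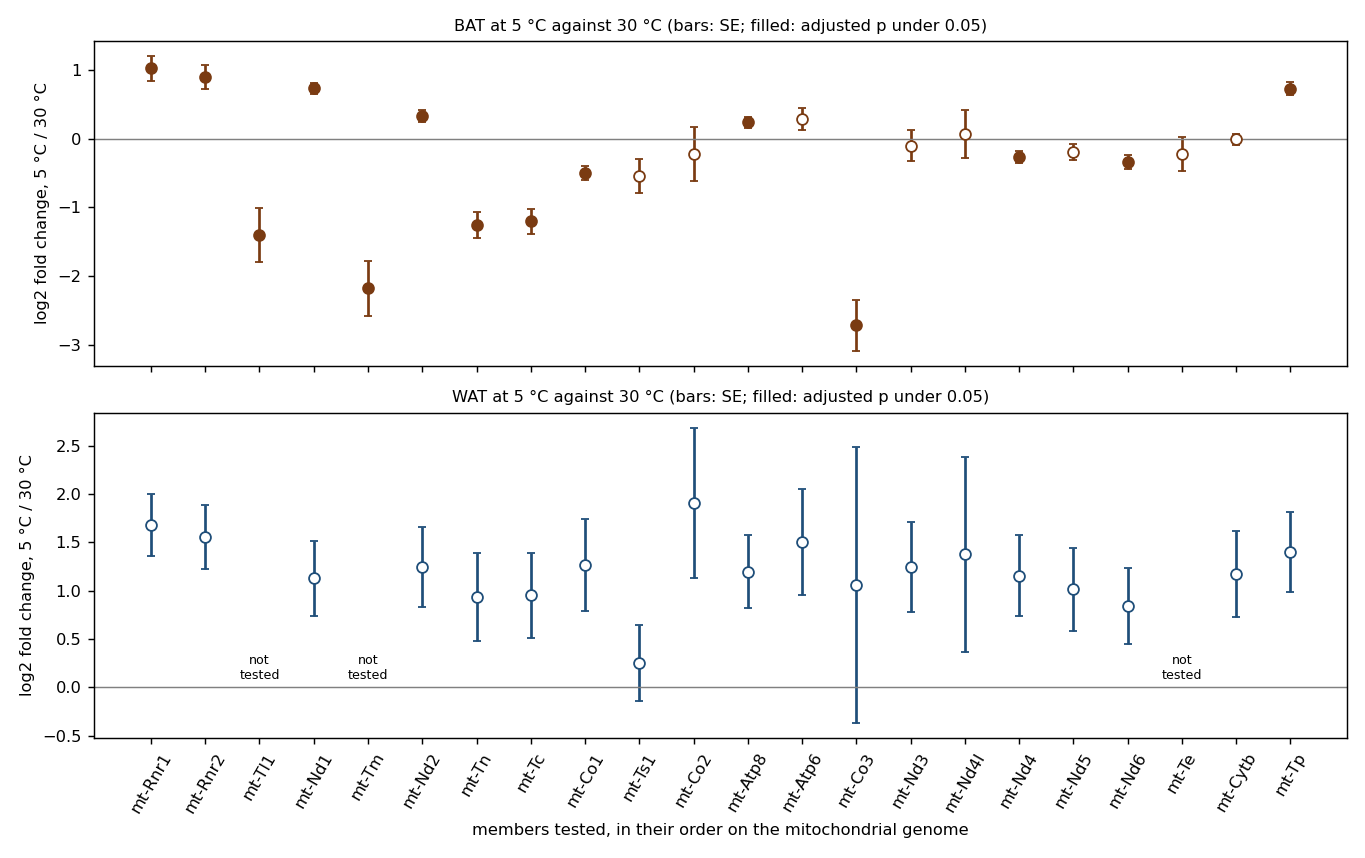
Log2 difference between 5 °C and 30 °C (TMM scaling, bars 1 SE) for the members tested, in genome order, in BAT (top) and WAT (bottom), with filled points for an adjusted p under 0.05. In BAT mt-Rnr1, mt-Rnr2, mt-Nd1 and mt-Nd2 lie above 0 and mt-Co3 lowest at -2.72, while in WAT all 19 points lie above 0 and none is filled.

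As a share of the mitochondrial counts, which needs no scaling between libraries, more of the brown fat groups were apart. Of the 15 rRNAs and mRNAs, 6 had every cold library above every warm one, 4 had every cold library below, and 5 overlapped. How many of all genes were apart on this scale was not computed. In CPM the same counts were 4 above, 3 below and 8 overlapping. Of all genes tested in BAT, 27.6% had the cold group wholly above and 27.6% wholly below, so the members did not exceed the background in CPM. mt-Co1 took 42.7, 44.1, 44.5 and 43.6% of the mitochondrial counts in BAT_30C and 32.1, 33.9, 33.0 and 32.9% in BAT_5C. mt-Nd1 took 7.90, 7.16, 7.22 and 7.22% and then 13.5, 13.3, 12.0 and 13.3%. mt-Nd2 took 9.60, 9.25, 9.10 and 9.76% and then 12.5, 12.7, 12.7 and 12.9%. The largest component was smaller in cold and these genes that precede it were larger. Shares of a whole cannot move independently. mt-Cytb, whose CPM overlapped, took 18.9, 17.6, 18.8 and 18.4% at 30 °C and 20.02, 19.4, 19.6 and 19.0% at 5 °C, just apart.

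In white fat fewer of the genes were apart. Among the same 15 genes 3 were wholly higher in WAT_5C, 2 wholly lower and 10 overlapped, with the same numbers without replicate 1. The share over all genes was not computed on this scale, and in CPM 8.23% of all genes in WAT were wholly higher and 5.42% wholly lower. The higher ones were mt-Rnr1 (0.479, 0.545, 0.484 and 0.459% of mitochondrial counts in WAT_30C and 0.568, 0.635, 0.954 and 0.734% in WAT_5C), mt-Rnr2 and mt-Co1 (37.4, 38.1, 37.8 and 36.3% and then 39.2, 39.8, 39.1 and 38.9%). The lower ones were mt-Nd6 (2.96, 3.01, 2.92 and 3.08% and then 2.38, 2.28, 2.32 and 2.33%) and mt-Nd5. mt-Co1 therefore took a smaller share in cold brown fat and a slightly larger share in cold white fat.

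**Figure D3:**
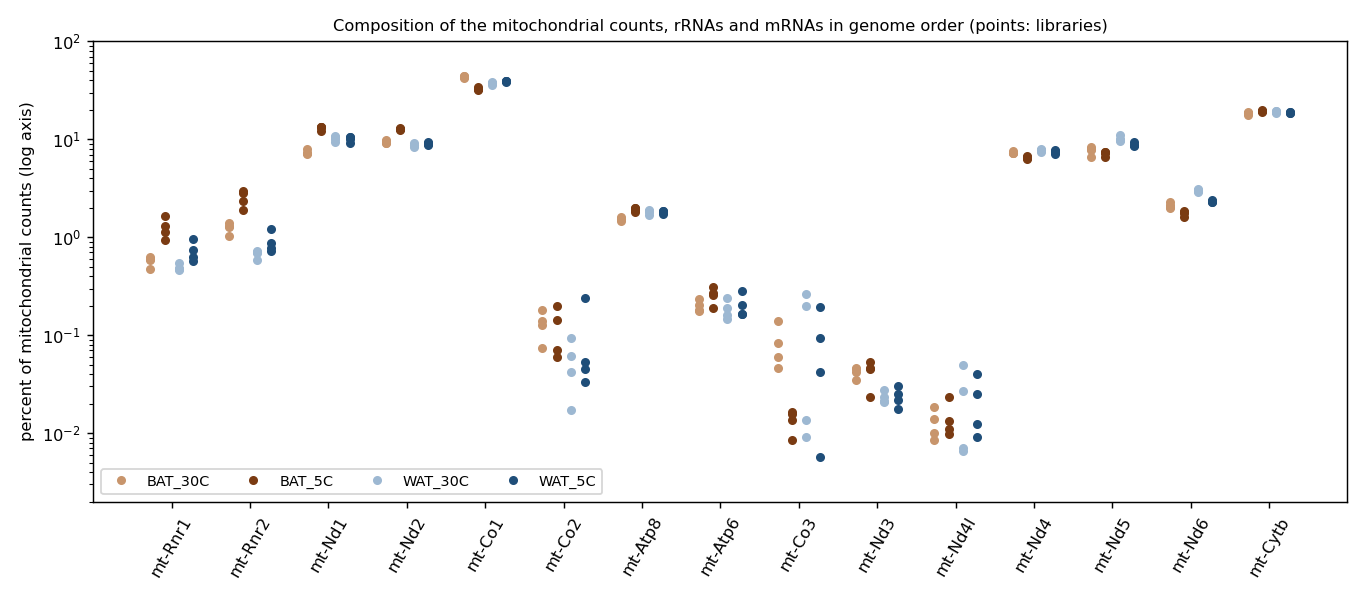
Percent of the mitochondrial counts (log axis) taken by each rRNA and mRNA, in genome order, in every library (points, coloured by group). mt-Co1 takes 42.7 to 44.5% in BAT_30C and 32.1 to 33.9% in BAT_5C, and mt-Co2, mt-Co3 and mt-Nd4l scatter widely between libraries of a group.

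In white fat every tested member had a higher mean in cold, but none passed. The 19 members tested (13 mRNAs, 2 rRNAs and 4 tRNAs) all had log2 differences above 0, with a median of 1.20 against -0.01 over all 18975 genes tested. Without WAT_5C replicate 1 the median was 0.66 and 17 of the 19 were above 0. With edgeR 0 of 19 rose, where 0.0632% of all genes did, and 0 fell, where 0% did. At an unadjusted p under 0.05, 13 of the 19 would rise and 0 fall, where 11.3% of all genes would rise and 6.78% fall. DESeq2 called 8 of them rising, where it called 3.84% of the genes it tested, and 0 falling. The 4 WAT_5C libraries differed widely from each other.

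The rRNAs came nearest to the threshold. mt-Rnr1 was at 99.2, 112, 115 and 131 CPM in WAT_30C and 581, 178, 416 and 325 CPM in WAT_5C, and mt-Rnr2 at 142, 148, 167 and 167 CPM and 749, 218, 525 and 383 CPM. Neither overlapped, and neither passed (log2 1.68 ± 0.32, adjusted p = 0.111, and log2 1.55 ± 0.33, adjusted p = 0.127). Without WAT_5C replicate 1 the cold libraries still stood above the warm ones. The log2 differences were then 1.38 ± 0.25 for mt-Rnr1 and 1.23 ± 0.25 for mt-Rnr2, and both were called (adjusted p = 0.0390 and 0.0499), as 2 of the 19 members tested against 1.84% of all genes. Without WAT_5C replicate 2 these 2 were called again (adjusted p = 0.0160 and 0.0205), against 1.37% of all genes.

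Among the mRNAs, mt-Co1 alone had groups that did not overlap. mt-Co1 was at 7758, 7848, 8943 and 10388 CPM in WAT_30C and 40134, 11116, 17047 and 17231 CPM in WAT_5C, where replicate 1 is the first value. The groups were just apart, and the log2 difference was 1.26 ± 0.48, adjusted p = 0.244, or 0.76 ± 0.20 (adjusted p = 0.0898) without replicate 1. mt-Cytb, at 3961, 3807, 4616 and 5605 CPM and 19621, 5377, 8193 and 8203 CPM, overlapped (log2 1.17 ± 0.44, adjusted p = 0.244, or 0.66 ± 0.21 without replicate 1). mt-Nd1 was at 2232, 1929.7, 2391 and 3041 CPM and 9334, 2794, 4608 and 4682 CPM, with the second cold library inside the warm range. In CPM, mt-Co1 and the rRNAs were the only rRNAs or mRNAs whose groups did not overlap (3 higher, 0 lower), where 8.23% and 5.42% of all genes did. Leaving out replicate 1 lowered the log2 difference of mt-Co3 from 1.06 ± 1.43 to -0.73 ± 1.28 and that of mt-Ts1 from 0.25 ± 0.39 to -0.08 ± 0.37.

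The remaining complex I and ATP synthase mRNAs showed the same pattern of libraries. For mt-Nd2 the WAT_30C libraries had 1807, 1726, 2087 and 2609 CPM and the WAT_5C libraries 9269.9, 2463, 4054 and 4099 CPM. For mt-Nd4 they had 1546, 1586, 1883 and 2245 CPM and 7968, 2110.0, 3119.7 and 3307 CPM, and for mt-Nd5 2099, 2277, 2287 and 2846 CPM and 9617, 2422, 3707 and 3833 CPM. In each, replicate 1 was highest and replicate 2 lay within the warm range. The same was seen for mt-Nd6 (613, 619.8, 690.2 and 883 CPM and 2439.8, 638, 1010.0 and 1031 CPM), the 1 mRNA of the other strand. mt-Atp8 had 388, 387, 404 and 523 CPM and 1875, 518, 763 and 825 CPM, and here too the second cold library was below the highest warm one. The mRNAs with near-complete nuclear copies were low and scattered: mt-Atp6 had 30.4, 49.7, 37.7 and 54.4 CPM and 289.9, 46.3, 71.2 and 90.6 CPM, and mt-Co3 had 2.84, 41.1, 2.17 and 74.9 CPM and 201, 11.9, 2.49 and 41.6 CPM. mt-Co2 had 3.62, 19.3, 14.4 and 12.1 CPM and 54.1, 9.36, 19.6 and 107 CPM, and replicate 1 was not its highest cold library. mt-Nd3 had 4.41, 4.27, 5.59 and 7.95 CPM and 25.9, 4.98, 9.61 and 13.3 CPM, and mt-Nd4l had 1.37, 5.54, 1.66 and 14.3 CPM and 41.6, 2.53, 5.37 and 11.1 CPM. All 5 of these overlapped between temperatures.

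The tRNAs of white fat overlapped between temperatures, with replicate 1 highest. mt-Tp was at 27.2, 28.9, 27.3 and 49.3 CPM in WAT_30C and 171, 44.1, 71.2 and 70.5 CPM in WAT_5C (log2 1.40 ± 0.41, adjusted p = 0.197). mt-Tn was at 0.712, 1.02, 1.13 and 1.22 CPM and 3.92, 0.804, 1.85 and 1.41 CPM, and mt-Tc at 0.635, 0.808, 1.03 and 0.931 CPM and 3.30, 0.749, 1.48 and 1.20 CPM. mt-Ts1 was at 0.115, 0.0734, 0.145 and 0.167 CPM and 0.256, 0.121, 0.131 and 0.110 CPM. The log2 differences of mt-Tn (0.94 ± 0.46, adjusted p = 0.305) and mt-Tc (0.95 ± 0.44, adjusted p = 0.289) did not pass. Without replicate 1 the log2 differences were 0.87 ± 0.25 for mt-Tp, 0.38 ± 0.31 for mt-Tn and 0.39 ± 0.27 for mt-Tc, and none passed. Replicate 1 also had the highest adipocyte and skeletal muscle markers of WAT_5C, given above, and Ucp1 at 67.2 CPM against 6.08, 399 and 129 CPM in replicates 2, 3 and 4. The brown adipocyte markers had a geometric mean of 0.749 to 1.60 CPM in WAT_30C and 7.34 to 61.2 CPM in WAT_5C, and the skeletal muscle markers 6.17 to 158 CPM and 0.683 to 133 CPM. The T and NK cell markers were lower in every cold library, at 52.1 to 73.2 CPM in WAT_30C and 11.2 to 47.9 CPM in WAT_5C. The part of other tissue in these differences was not tested.

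The effect of cold differed between the tissues for a few members. Leaving aside mt-Tl1, mt-Tm and mt-Te, which were tested only through BAT, 4 of 19 had a more positive log2 difference in WAT than in BAT by the test of that difference, against 12.5% of all 19481 genes. None was more negative, against 8.34%. These 4 fell in BAT and were higher without passing in WAT. The difference of the differences was 2.22 ± 0.51, adjusted p = 0.00641 for mt-Tn, 2.18 ± 0.48, adjusted p = 0.00524 for mt-Tc, 1.80 ± 0.53, adjusted p = 0.0249 for mt-Co1 and 1.45 ± 0.46, adjusted p = 0.0364 for mt-Nd4. The median over the 19 was 1.23, against 0.12 over all genes, or 0.63 without WAT_5C replicate 1. mt-Tn and mt-Tc passed in all 24 settings tried. The number called rested on single WAT_5C libraries: without replicate 1 it was 7 (15.6% of all genes). Without replicate 2 it was 14 (12.9%), a number that includes mt-Te, left aside above. Without replicate 1 the values for mt-Tn, mt-Tc and mt-Co1 were 1.63 ± 0.36, 1.59 ± 0.32 and 1.25 ± 0.23, each still called. With the replicate block the calls of mt-Co1 (adjusted p = 0.0648) and mt-Nd4 (0.0733) were lost. They were also lost without other libraries, with mt-Co1 at adjusted p = 0.0510 without BAT_30C replicate 3, and 0.0575, 0.0533 and 0.0579 without WAT_30C replicates 1, 2 and 3.

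For mt-Nd4 the call was lost without BAT_30C replicates 2 to 4, any BAT_5C library or WAT_30C replicates 1 to 3, with adjusted p from 0.0584 to 0.0748. The rRNAs, which were higher in cold in both tissues, had differences of 0.69 ± 0.39, adjusted p = 0.236 and 0.69 ± 0.41, adjusted p = 0.256, which did not pass. For mt-Nd1 the difference was 0.43 ± 0.43, and without WAT_5C replicate 1 it was -0.03 ± 0.24.

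Brown fat exceeded white fat at 30 °C for the 19 members with a median count of 10 or more in both tissues. All 19 passed, where 34.5% of all genes were higher in BAT, and none was lower, where 35.3% were. The tRNAs mt-Tl1, mt-Tm and mt-Te were tested only through BAT and are left aside, with 2, 1 and 7 counts over the 4 WAT_30C libraries. The log2 differences ran from 2.81 ± 0.84 for mt-Nd4l to 5.02 ± 0.76 for mt-Co2. The rRNAs had log2 differences of 3.96 ± 0.31, adjusted p = 6.98e-08 for mt-Rnr1 and 4.64 ± 0.34, adjusted p = 3.40e-08 for mt-Rnr2, against a median of 3.65 over the 13 mRNAs. In the 24 settings tried, mt-Co3 alone of these 19 missed the threshold in some (3.10 ± 1.18, adjusted p = 0.0290). At 5 °C 17 of 19 were higher in BAT, where 31.8% of all genes were, and none lower, where 40.5% were. The median over the 13 mRNAs was 2.45, or 2.92 without WAT_5C replicate 1, where 18 of the 19 passed (34% of all genes). mt-Nd4l (1.48 ± 0.80, adjusted p = 0.108) and mt-Co3 (-0.71 ± 1.10, adjusted p = 0.574) did not pass. Without WAT_5C replicate 1 mt-Nd4l was called (2.73 ± 0.74, adjusted p = 0.00370) and mt-Co3 was not (1.06 ± 1.02, adjusted p = 0.352). With its nuclear copy added, mt-Co3 had a log2 difference of 0.92 ± 0.83. The median over all genes was -0.03 at 30 °C and -0.19 at 5 °C.

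Per kilobase of gene, the mRNAs fell into separate ranges. In BAT_30C mt-Co1 was highest at 87559 ± 8051 CPM per kilobase (mean ± SD, n = 4) and mt-Cytb next at 49703 ± 2827. mt-Nd2 followed with a range of 25487 to 29944, apart from mt-Nd1 at 22740.4 to 24862, which overlapped mt-Atp8 at 21951 to 25131. mt-Nd4 (14333 to 17493), mt-Nd5 (11339 to 15157) and mt-Nd6 (11256 to 14604) each overlapped the next. The rRNAs came after them, mt-Rnr2 at 2463 ± 481 and mt-Rnr1 at 1866 ± 343, which also overlapped. In BAT_5C mt-Nd1 (39406 ± 1714) stood above mt-Nd2 (35373 ± 2124) without overlap, the reverse of BAT_30C. In WAT the order began with mt-Co1, mt-Cytb and mt-Nd1 at both temperatures, at 5653 ± 794, 3931 ± 715 and 2506 ± 490.3 in WAT_30C without overlap, while in WAT_5C the ranges of these 3 overlapped.

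The lowest mRNAs per kilobase in every group were the 5 with 98.0 to 100% of their windows in another annotated transcript. Their group means ran from 135 to 898 CPM per kilobase in BAT_30C, where the other 8 ran from 12563 to 87559, and from 16.0 to 63.2 in WAT_30C, where the other 8 ran from 1303 to 5653. In BAT_5C the ranges were 50.04 to 1097 and 9905 to 61768, and in WAT_5C 38.6 to 183 and 2466 to 13840. mt-Co1 and mt-Nd4, with 51.1% and 62.2% of windows shared, were within the higher range. mt-Atp8 and mt-Atp6, which overlap in 43 bases and lie on the same precursor, differed by the same gap: in BAT_30C mt-Atp8 was at 23276 ± 1349 and mt-Atp6 at 898 ± 109.8 CPM per kilobase. How many reads of the 5 were counted elsewhere or not at all was not tested.

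**Figure D4:**
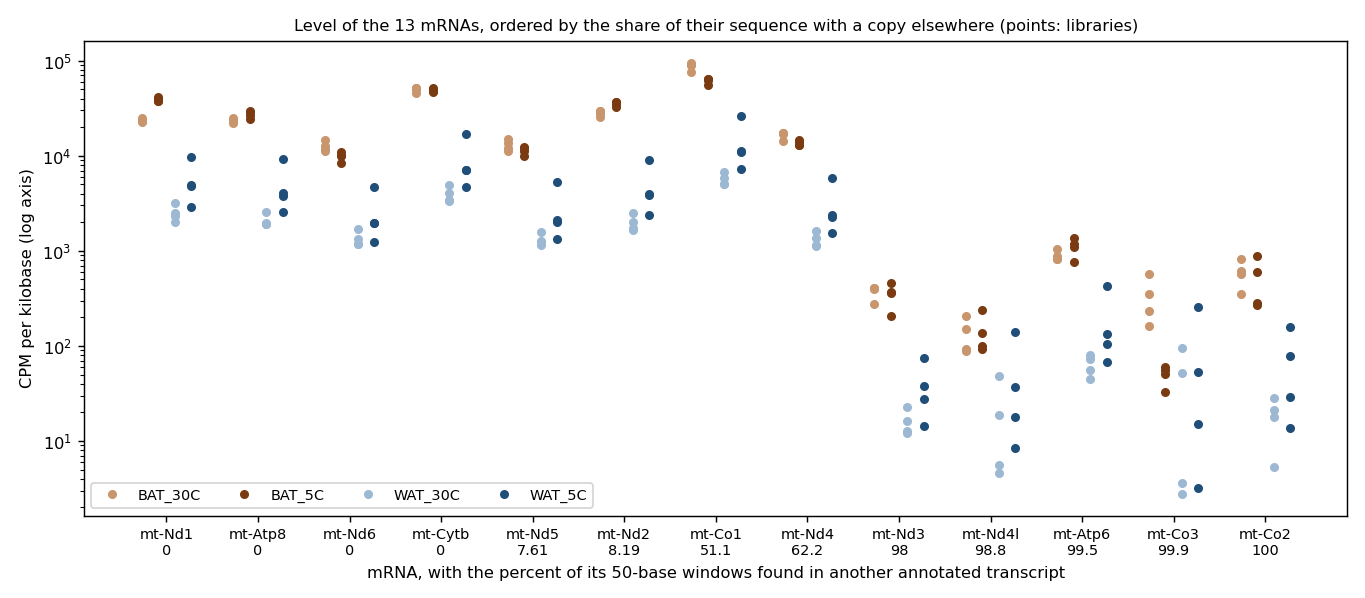
CPM per kilobase (log axis) of the 13 mRNAs in each library (points, coloured by group), ordered by the percent of their 50-base windows found in another annotated transcript. The 5 mRNAs at 98.0 to 100% have group means of 135 to 898 in BAT_30C, below the 12563 to 87559 of the other 8.

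The nuclear copies took a variable part of the counts of each pair. For mt-Co2 and Gm28661 the copy held 4.22 to 54.7% of both in warm brown fat, 15.9 to 69.3% in cold brown fat, and 2.33 to 80.4% and 3.45 to 60.1% in warm and cold white fat. Libraries of 1 group were far apart. For mt-Co3 and Gm28437 it held 1.40 to 78.8% in WAT_30C and 11.3 to 98.3% in WAT_5C, while the BAT groups, given above, did not overlap. For mt-Atp6 and Gm10925 it held 16.2 to 40.9% and 20.5 to 39.6% in warm and cold brown fat, and 0.983 to 5.05% and 1.39 to 44.1% in warm and cold white fat. For mt-Nd4l and Gm10222 it held 4.03 to 22.1% and 11.0 to 66.4% in BAT and 1.12 to 5.70% and 6.88 to 63.6% in WAT, at 30 °C and 5 °C. For mt-Nd3, whose copy Gm28438 differs in 1 base, it held at most 25.5% in any library. The partial copies of mt-Co1 and mt-Nd4 held at most 0.311% and 1.98%.

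Adding the copies' counts to the members gave the same numbers of calls. In BAT there were 6 rising and 8 falling, and in WAT there were 0. The 8 include mt-Tl1 and mt-Tm, tested only through BAT_30C. For this fit the share of all genes called is not given, so its counts compare settings only. The log2 difference of mt-Nd4l in BAT went from 0.08 ± 0.35 to 0.68 ± 0.37 (adjusted p = 0.144), and that of mt-Atp6 from 0.29 ± 0.16 to 0.24 ± 0.20. Those of mt-Co1 (-0.50 ± 0.10) and mt-Nd4 (-0.26 ± 0.09) were both still called. In WAT the log2 differences went from 1.38 ± 1.01 to 2.45 ± 1.14 for mt-Nd4l, from 1.06 ± 1.43 to 2.14 ± 1.11 for mt-Co3, and mt-Atp6 went to 2.09 ± 0.69, and none passed.

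**Figure D5:**
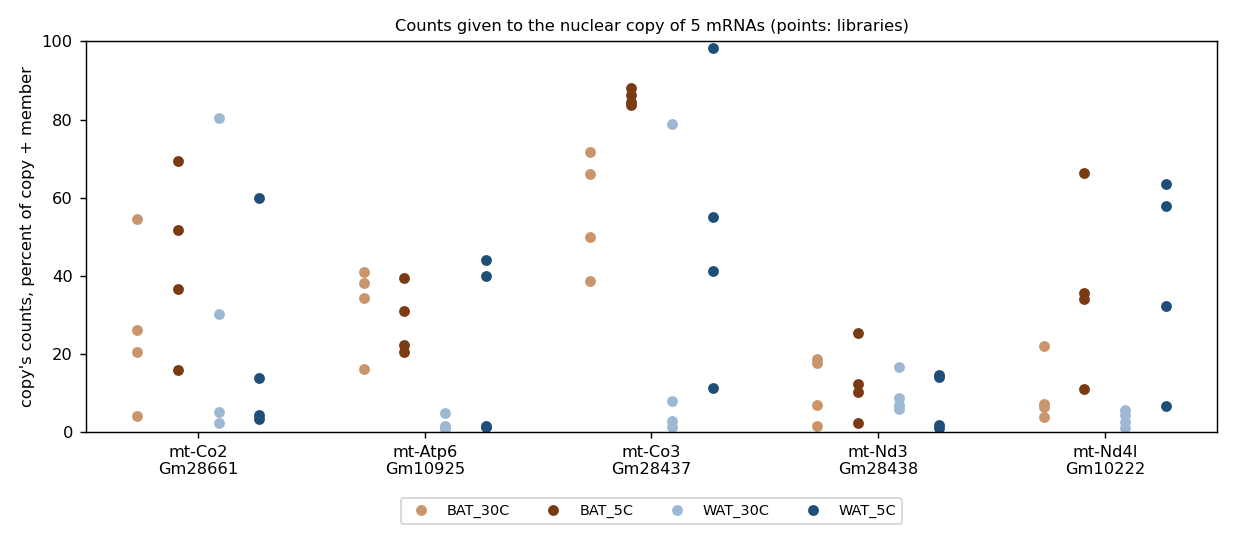
Counts of the nuclear copy as a percent of the counts of copy and member together, for the 5 mRNAs with near-complete copies, in each library (points, coloured by group). For mt-Co3 the BAT_5C libraries lie at 83.8 to 88.0%, above the 38.8 to 71.8% of BAT_30C, and most other groups are widely spread.

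The nuclear genes that transcribe, cut, modify and translate these RNAs were followed as 8 lists of 84 genes in all, of which 83 were tested (all but Prorp). In BAT 57 rose in cold and 7 fell, against 29.2% and 30.3% of all genes, and the median log2 difference was 0.47 against -0.05. By role, 8 of 8 genes of RNA stability, polyadenylation and decay rose. So did 9 of 11 translation factors (2 fell), 14 of 20 aminoacyl-tRNA synthetases (1 fell), 8 of the 11 tested genes of transcript cleavage and processing (1 fell) and 7 of 11 of tRNA modification (1 fell). In transcription 5 of 9 rose and 1 fell, in rRNA modification 4 of 7 rose and 1 fell, and in genome replication 2 of 6 rose. The genes with the smallest adjusted p were Cars2, the cysteinyl-tRNA synthetase of mitochondria (log2 1.97 ± 0.07, adjusted p = 6.83e-08), Rexo2, an oligoribonuclease (log2 1.66 ± 0.06, adjusted p = 7.43e-08), Nsun3, which modifies the methionine tRNA (log2 1.44 ± 0.07, adjusted p = 3.62e-07), and Gfm2, a ribosome recycling factor (log2 1.15 ± 0.06, adjusted p = 4.98e-07).

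In WAT 0 of the 83 rose or fell with edgeR. At an unadjusted p under 0.05, 18 would rise and 3 fall (Mterf1b, Mrm1 and Mars2), against 11.3% and 6.78% of all genes. DESeq2 called Tfb2m, Gatb and Gfm1 rising, a share close to its 3.84% over all genes, and none falling. The median log2 difference was 0.21, against -0.01. With edgeR Tfb2m, a transcription initiation factor, had a log2 difference of 0.70 ± 0.18, adjusted p = 0.172, and Gfm1, an elongation factor, 1.03 ± 0.30, adjusted p = 0.190. The cold effect was more negative in WAT than in BAT for 20 of the 83, against 8.34% of all genes, with Cars2 (log2 -1.83 ± 0.13, adjusted p = 6.15e-07) and Mrm1, which methylates the 16S rRNA (log2 -1.07 ± 0.13, adjusted p = 8.35e-05), the smallest in adjusted p. It was more positive for 3, against 12.5%. These were Hsd17b10, a subunit of the enzyme that cuts tRNAs at their 5′ ends (log2 1.55 ± 0.30, adjusted p = 0.00205), Mettl15, which methylates the 12S rRNA (log2 1.55 ± 0.25, adjusted p = 0.000635), and Mterf3 (log2 0.30 ± 0.10, adjusted p = 0.0418). All 3 fell in BAT with log2 differences of -0.74, -0.997 and -0.34. Hsd17b10, Mettl15, Mterf3, Mterf1b and Mars2 were named after their values were seen.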

How the data were processed

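RNA of 16 mouse fat samples was sequenced after poly(A) selection with a library kit that does not mark strand, per the labels' protocols. The deposited values are raw counts per Ensembl identifier in each library, made by the authors with Trim Galore and TopHat (no versions), per the submitters' processing notes. For the counter, build, annotation and treatment of reads that fit several genes, nothing is given in the sources used here. Symbols were known for 45143 of 46078 identifiers.

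Groups follow the sample titles. Genes were filtered by filterByExpr (minimum count 10, minimum total 15), scaled by TMM and tested with the quasi-likelihood F-test of edgeR 4.0.16 (limma 3.58.1, R 4.3.3), with Benjamini-Hochberg adjustment over all genes tested and a threshold of 0.05. BAT and WAT were fitted separately, and tissue contrasts and the difference of the cold effects came from the fit of all 16 libraries. SE is the log2 difference divided by the square root of F. DESeq2 1.42.0 was an alternative. CPM use the TMM scaling of all 16 libraries, and marker means add 0.1 CPM. The fits were tested on simulated data. Between replicates, the counts of all 24 pairs differed beyond sampling noise.

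The members, the gene lists and the rule for named genes were chosen with earlier results of these data known. All members are accounted for, and in the lists of nuclear genes up to 4 with the smallest adjusted p per comparison were named, with others marked in the text. Depth was 54264023 to 71289020 counts per library. Shared sequence was searched as 50-base windows, on both strands, in the GENCODE M21 transcripts of GRCm38, and a gene was called a copy if at least 90% of its windows lay in a member.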

Additional observations from a re-analysis of the deposited data

Results flagged for a closer look

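In 94 groups of 4 libraries, a test for a single distant value (Dixon, at its 95% critical value) marked 7, and chance marks about 1 in 20 groups. Of these, 3 were replicate 1 of BAT_30C, the lowest of its group for mt-Rnr1 (1293 CPM, next 1889), mt-Nd3 (97.0 CPM, next 139) and mt-Cytb (52012 CPM, next 58336). Another 3 were replicate 4 of WAT_30C, the highest of its group for mt-Atp8 (523 CPM, next 404), mt-Tp (49.3 CPM, next 28.9) and the tRNA share of the library (0.00754%, next 0.00477%). The last was mt-Ts1 in WAT_5C replicate 1 (0.256 CPM, next 0.131), the library that also stood apart in Xist.

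The cold effect differed between WAT and BAT by the test of the difference itself for 4 members. On the log2 scale, WAT minus BAT, it was 2.22 for mt-Tn, 2.18 for mt-Tc, 1.80 for mt-Co1 and 1.45 for mt-Nd4.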

How the results depend on the processing

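Other scalings, filters, fits and DESeq2 left most results in place. Among the counts of calls, leaving aside fits without 1 library, 68 stayed within 1.5 times of the value reported and 8 moved. In BAT the fit of all 16 libraries gave 2 rising and 4 falling, with mt-Tl1 and mt-Tm, tested only through BAT_30C, among the falling. The 4 libraries with matching labels gave 3 falling. In WAT DESeq2 gave 8 rising (3.84% of the genes it tested). The fit of all 16 libraries, whose spread includes BAT, gave 10, and its share over all genes is not given. More positive cold effects in WAT numbered 11 with library totals, 8 with DESeq2 and 2 with the replicate block (mt-Tn and mt-Tc). The 11 and the 8 include mt-Te, which was tested only through BAT. The share of all genes called in these settings is not given, so the counts compare settings only.

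Library totals moved the median log2 difference over all genes in BAT from -0.05 to -0.43, and there mt-Nd2 (-0.043), mt-Atp8 (-0.14), mt-Atp6 (-0.092) and mt-Nd4l (-0.31) reversed, as did mt-Ts1 in WAT (-0.050). Library totals also called mt-Cytb (-0.39) and mt-Nd5 (-0.57) falling in BAT. There mt-Cytb was at 0.013 with RLE size factors, 0.023 with DESeq2 and 0.075 in the 4 matching libraries, and mt-Co2 was at 0.13 with its copy added. At 5 °C mt-Co3 in BAT against WAT was at 0.92 with its copy added. The cause was not tested.

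With each library left out in turn, BAT gave 5 to 7 rising and 5 to 8 falling, WAT 0 to 2 rising, and the difference of the cold effects 2 to 14. The falling include mt-Tl1 and, in the fits that tested it, mt-Tm, both tested only through BAT_30C. The 14 include mt-Te, tested only through BAT. The share of all genes called is not given for each of these fits. Members that changed direction ranged as follows. In BAT mt-Co2 ran from -0.63 to 0.0065, mt-Nd3 from -0.26 to 0.095, mt-Nd4l from -0.30 to 0.38 and mt-Cytb from -0.033 to 0.028. In WAT mt-Ts1 ran from -0.079 to 0.42 and mt-Co3 from -0.73 to 2.03. The difference of the cold effects ran from -0.028 to 0.64 for mt-Nd1, and mt-Co3 in BAT against WAT at 5 °C from -1.11 to 1.06.

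The labels share replicate numbers between groups but do not say that a number marks 1 mouse. Correlations of the deviations of equally numbered libraries ran from -0.330 to -0.00827 between the BAT groups and from -0.551 to -0.0261 between the WAT groups. Groups of different temperature cannot share a mouse, so these values do not bear on pairing. Between BAT_30C and WAT_30C the correlations ran from -0.310 to 0.0689, against -0.309 to 0.376 for unequal numbers. Between BAT_5C and WAT_5C they ran from 0.00740 to 0.264, against -0.258 to 0.131. For replicate 1 at 5 °C the equal number did not mark 1 mouse, as Xist had 11457 counts in BAT and 3 in WAT. Whether other BAT and WAT libraries shared mice is not settled, and the numbers were not taken as pairs. With the replicate block, BAT had 6 rising and 8 falling, WAT 0, and BAT against WAT 22 higher at 30 °C and 20 at 5 °C, the 3 tRNAs tested only through BAT included. The 8 falling include mt-Tl1 and mt-Tm, tested only through BAT_30C. For the block the share of all genes called is not given, so its counts compare settings only.

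Few counts limit the tRNAs: 15 of the 22 could not be tested in BAT, and only 4 were tested in WAT.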
